A study of Mus musculus with 32 samples.

Results

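Glycine and GABA are the fast inhibitory transmitters of the spinal cord, and the 10 genes described here encode the core of the synapses that use them: the glycine receptor subunits *Glra1*, *Glra2*, *Glra3* and *Glrb*, the glycine transporters *Slc6a5* and *Slc6a9*, the postsynaptic scaffold *Gphn*, the GABA-synthesizing enzymes *Gad1* and *Gad2*, and the vesicular transporter *Slc32a1*. They were chosen by symbol from the lumbar spinal cord table, by the Ensembl identifiers that map to those symbols, and all 10 of them were found among the 74021 genes of that table. The choice was made knowing that *Glra1* was among the largest falls of the comparison below, so the cord values of these genes are given as a description, without p-values.

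The cord libraries came from mice at P140, the late symptomatic stage of this model, in which a human SOD1 transgene carrying the G93A mutation causes motor neuron degeneration. Both groups carry that transgene from a B6 line and were bred as littermates. SOD1G93A/LAG-3+/+ mice (3 libraries) keep the immune checkpoint gene *Lag3*. SOD1G93A/LAG-3-/- mice (3 libraries) carry a targeted disruption of it in every cell, from a line named for B6 and another mouse strain. Strain sequence carried along with the disrupted allele was not examined. An effect through microglia cannot be told apart from one through any other cell type. No cord library without the SOD1G93A transgene was analysed here. The series also holds 26 libraries of sorted lumbar microglia, which are used below only for the level of these genes in another cell population: WT mice without the transgene (4), LAG-3-low and LAG-3-high fractions of SOD1G93A microglia (5 each), and SOD1G93A/LAG-3+/+ and SOD1G93A/LAG-3-/- microglia at P120 and at P140 (3 each).

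In inhibitory synapses of the cord, *Slc6a5* and *Slc32a1* fill the presynaptic side, the former taking glycine back into glycinergic terminals and the latter loading both glycine and GABA into vesicles. *Gad1* and *Gad2* make GABA from glutamate. The released glycine opens chloride channels built of alpha subunits (*Glra1*, *Glra2*, *Glra3*) and the beta subunit (*Glrb*), which binds gephyrin (*Gphn*) beneath the membrane, and *Slc6a9*, found mainly on astrocytes, clears glycine from the cleft. The alpha 1 subunit is the main adult form in the cord, and loss of its function causes an exaggerated startle response.

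The 4 receptor subunit genes are related in sequence, which matters for reads assigned to transcripts. Their coding sequences are 71.9% (*Glra1* and *Glra2*), 73.6% (*Glra1* and *Glra3*) and 57.2% (*Glra1* and *Glrb*) identical over aligned bases. A stretch of 90 coding bases is shown because it is the window of that length within 1 exon of each gene that is most alike in all 4 (56 of the 90 bases identical), with capitals marking the bases that differ from *Glra1*, read 5′ to 3′ on the coding strand from GRCm39 with the GENCODE vM39 canonical transcripts. The windows lie in exon 4 of 9 of *Glra1* (chr11:55427156-55427245, minus strand), exon 4 of 9 of *Glra2* (chrX:164064868-164064957, minus strand), exon 4 of 10 of *Glra3* (chr8:56492702-56492791, plus strand) and exon 5 of 10 of *Glrb* (chr3:80769248-80769337, minus strand).
Glra1: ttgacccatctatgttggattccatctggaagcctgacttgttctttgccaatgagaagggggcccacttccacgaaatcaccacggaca
Glra2: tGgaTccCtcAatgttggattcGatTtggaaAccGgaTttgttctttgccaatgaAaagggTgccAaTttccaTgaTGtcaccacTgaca
Glra3: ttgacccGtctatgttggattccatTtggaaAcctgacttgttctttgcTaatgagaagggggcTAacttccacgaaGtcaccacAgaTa
Glrb: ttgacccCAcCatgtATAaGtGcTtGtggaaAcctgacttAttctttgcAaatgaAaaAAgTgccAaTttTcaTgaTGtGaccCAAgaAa

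*Glra2* differed from *Glra1* at 17 of these bases, *Glra3* at 9 and *Glrb* at 28. Over whole canonical transcripts, none of the 2782 distinct runs of 31 bases in *Glra1* (ENSMUSG00000000263, chr11:55405064-55499422, minus strand) occurred in a transcript of another gene. None of the runs that *Glra2*, *Glra3* or *Glrb* shared with other genes came from another of the 10 genes. *Gad1* shared 7.08% of its runs with 11 other genes and *Gad2* 1.96%, while the remaining genes shared 0.568% or less, so the division of reads is least certain for *Gad1*.

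Totals of the 6 cord libraries ranged from 19430102 to 26994524 estimated counts, with 25681 to 27911 genes at 1 count or more. *Lag3* served as the check of genotype. It stood at 74.5, 43.4 and 61.4 CPM (counts scaled by the library total and its TMM factor) in the LAG-3+/+ libraries and at 5.72, 5.60 and 5.50 CPM in the LAG-3-/- libraries, a log2 fold change of -3.41 (SE 0.19; edgeR quasi-likelihood F-test, Benjamini-Hochberg adjusted p = 4.3e-05). The sex and the tissue content of the libraries bear on everything that follows. The study lists the LAG-3+/+ libraries as male, male and female, but all 3 held *Xist* at 310 to 558 CPM and Y-linked transcripts at 0.215 to 1.38 CPM, so that 2 LAG-3+/+ libraries went against their listed sex. The LAG-3-/- libraries matched theirs, with *Xist* at 219 CPM in replicate 1 (female) and at or near 0 in replicates 2 and 3 (male). In addition, the summed sensory ganglion and Schwann markers reached 1380 CPM in LAG-3-/- replicate 2 against 3.25 to 5.09 CPM in the other 5 libraries. Results are therefore given with and without these libraries where they differ.

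The sharpest difference among the 10 genes was in *Glra1*. Its level was 64.5, 97.9 and 74.9 CPM in the LAG-3+/+ libraries and 9.38, 7.22 and 14.5 CPM in the LAG-3-/- libraries. The groups were far apart, the lowest LAG-3+/+ library holding more than any LAG-3-/- library. Means were 79.1 ± 17.1 and 10.4 ± 3.74 CPM (SD, n = 3 each), 7.63-fold lower without LAG-3, and the log2 fold change was -2.94 (SE 0.28). The values rest on 164 to 2276 counts per library, and only 14 of the 17702 tested genes had a lower log2 fold change. Among the 10642 genes with a mean of at least 10 CPM, only *Gm10359* and *Lag3* itself fell further.

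The other alpha subunits did not follow. *Glra2*, the subunit that predominates before birth, stood at 9.47, 12 and 10.7 CPM against 9.27, 12.9 and 10.2 CPM, a log2 fold change of 0.01 (SE 0.16). *Glra3*, which is enriched in the dorsal horn, stood at 22.8, 28.7 and 27.5 CPM against 16.2, 26.8 and 25.5 CPM, a log2 fold change of -0.20 (SE 0.18). Both genes overlapped between groups, and the lowest *Glra3* value belonged to LAG-3-/- replicate 1. The beta subunit *Glrb*, which all heteromeric glycine receptors share, was abundant and also overlapped, at 192, 290 and 256 CPM against 257, 273 and 238 CPM (log2 fold change 0.06, SE 0.15).

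**Figure D1:**
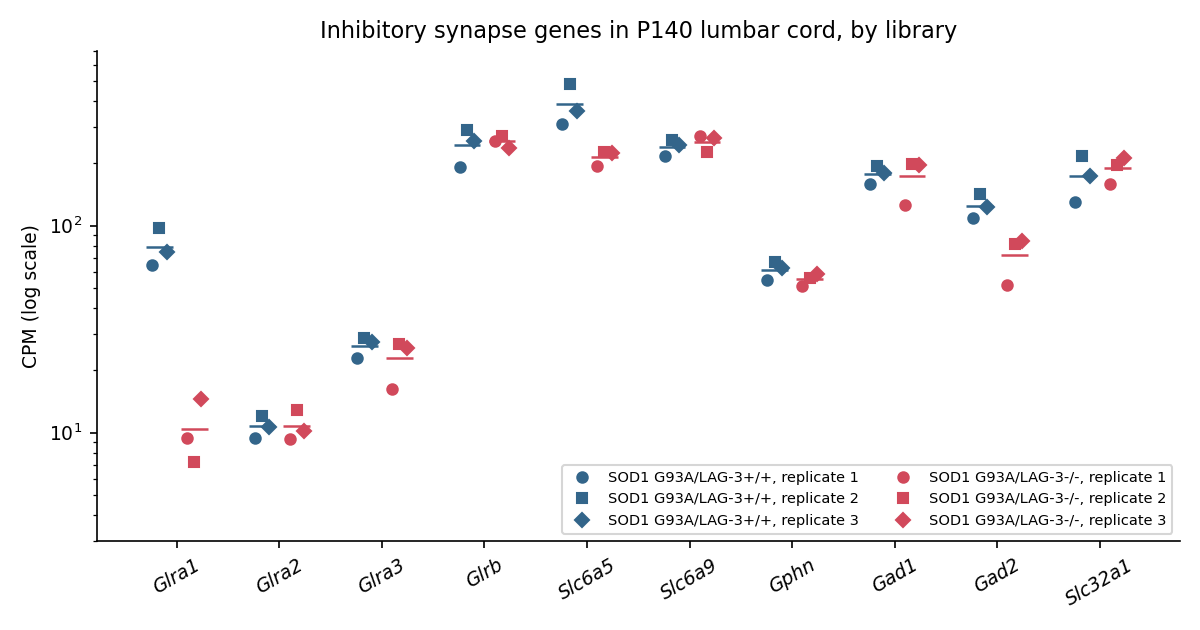
CPM of the 10 genes in each cord library, on a log scale, with the LAG-3+/+ libraries in blue, the LAG-3-/- libraries in red, 1 symbol per replicate number and a bar at each group mean (n = 3). *Glra1* (means 79.1 and 10.4 CPM), *Slc6a5* (385 and 215 CPM) and *Gad2* (125 and 72.4 CPM) are the 3 genes whose groups do not overlap.

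*Glra1* transcripts made up a different part of the alpha subunit pool in the 2 groups. Levels of different genes can be compared roughly on a scale of CPM per kilobase of canonical transcript. This scale takes 1 length per gene and is not adjusted for the length trend described below. On it *Glra1* was at 28.1 ± 6.07, *Glra3* at 3.93 ± 0.46 and *Glra2* at 3.35 ± 0.40 in LAG-3+/+ libraries (SD, n = 3). In LAG-3-/- libraries the 3 subunits were close together, at 3.69 ± 1.33, 3.41 ± 0.86 and 3.37 ± 0.59, and their order is not resolved by their spread. The share of *Glra1* in the summed alpha level was 79.2 ± 1.75% with a range of 78.2 to 81.3% in LAG-3+/+ libraries, and 35.1 ± 9.60% with a range of 24.2 to 42.4% in LAG-3-/- libraries. The summed alpha level fell from 35.4 ± 6.87 to 10.5 ± 1.75 CPM per kilobase, and its ratio to *Glrb* from 0.725 ± 0.050 to 0.207 ± 0.045. These shares follow from the *Glra1* values already given and are not separate evidence.

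**Figure D2:**
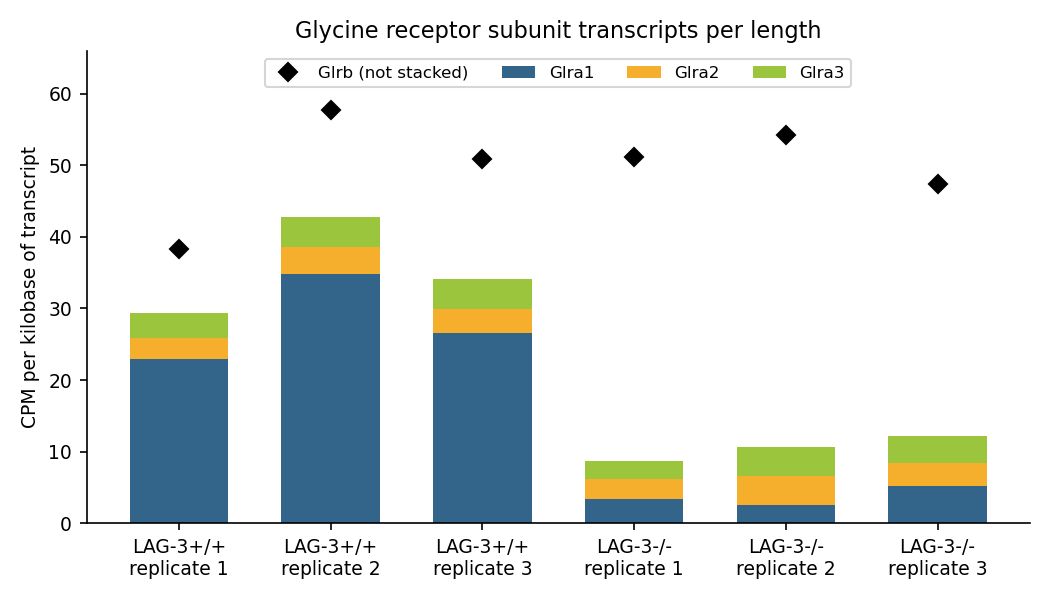
Glycine receptor subunit transcripts in each cord library, in CPM per kilobase of canonical transcript, with *Glra1*, *Glra2* and *Glra3* stacked and *Glrb* as a diamond. *Glra1* fills 78.2 to 81.3% of the stack in the LAG-3+/+ libraries and 24.2 to 42.4% in the LAG-3-/- libraries, while *Glrb* overlaps between the groups.

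On the presynaptic side, the neuronal glycine transporter *Slc6a5* (ENSMUSG00000039728, chr7:49559894-49613604, plus strand), a marker of glycinergic neurons, was lower. It stood at 311, 486 and 359 CPM in LAG-3+/+ libraries and at 193, 227 and 225 CPM in LAG-3-/- libraries. The groups did not overlap, although LAG-3+/+ replicate 2 stood well above the other 2 of its group. Means were 385 ± 90.4 and 215 ± 18.8 CPM (SD, n = 3), with a log2 fold change of -0.84 (SE 0.16). *Slc32a1*, which loads the vesicles of the same terminals, stood at 130, 218 and 174 CPM against 159, 196 and 213 CPM, overlapping, with a log2 fold change of 0.12 (SE 0.18). Per kilobase, the ratio of *Slc6a5* to *Slc32a1* was 0.978, 0.909 and 0.840 in the LAG-3+/+ libraries and 0.495, 0.471 and 0.430 in the LAG-3-/- libraries. These transcripts differ in length (7065 and 2879 bases), and with the length and GC offsets described below their log2 fold changes were -0.39 and -0.14.

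The GABA-synthesizing enzymes differed from each other in the same way. *Gad2* (ENSMUSG00000026787, chr2:22511862-22583886, plus strand), the enzyme concentrated in nerve terminals, stood at 109, 142 and 123 CPM in LAG-3+/+ libraries and 51.4, 81.9 and 84.0 CPM in LAG-3-/- libraries. These groups did not overlap either, and LAG-3-/- replicate 1 was the lowest. Means were 125 ± 16.4 and 72.4 ± 18.2 CPM, with a log2 fold change of -0.78 (SE 0.18). *Gad1*, the enzyme found throughout the cell, stood at 159, 194 and 181 CPM against 126, 199 and 197 CPM, overlapping, with a log2 fold change of -0.03 (SE 0.17). The ratio of *Gad2* to *Gad1* per kilobase was 0.468, 0.496 and 0.465 in LAG-3+/+ libraries and 0.277, 0.281 and 0.290 in LAG-3-/- libraries, a narrow range within each group. With the same offsets their log2 fold changes were -0.38 and 0.13.

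The glial glycine transporter and the scaffold showed no such separation. *Slc6a9* stood at 218, 259 and 246 CPM against 270, 226 and 264 CPM (log2 fold change 0.07, SE 0.12). *Gphn*, which holds both glycine and GABA-A receptors at the synapse, stood at 54.5, 66.9 and 62.1 CPM against 51.0, 55.7 and 58.6 CPM (log2 fold change -0.15, SE 0.11). Both overlapped between groups.

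In all, 3 of the 10 genes (*Glra1*, *Slc6a5*, *Gad2*) passed an adjusted p under 0.1 in the lower direction and 0 in the higher. Of all tested genes, 23.9% passed lower and 23.1% higher (4234 and 4096 genes, or 5316 and 2928 with library totals in place of TMM, which moved the median of all genes to -0.13). The counts of the 10 were the same at an unadjusted p under 0.05 in edgeR and at an adjusted p under 0.1 in DESeq2. With so many genes passing, that unadjusted limit is nearly the same cut-off and no separate check. The same 3 genes were those whose groups did not overlap, beside 26.1% of all tested genes that were lower without overlap and 25.5% that were higher. With an absolute log2 fold change above 1 required as well, 1 of the 10 (*Glra1*) was called lower, beside 3.15% of all tested genes, and 0 were called higher, beside 4.37%. The other 7 genes had log2 fold changes from -0.20 to 0.12, and the median over the 10 was -0.09 against 0.00 over all tested genes. Because the genes were chosen with this contrast known, nothing is read from these counts.

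The order of the genes by level per kilobase changed little apart from those 3. In LAG-3+/+ libraries *Slc6a9* (69.2 ± 6.03 CPM per kilobase), *Slc32a1* (60.4 ± 15.3), *Slc6a5* (54.5 ± 12.8), *Glrb* (49.0 ± 9.86) and *Gad1* (42.9 ± 4.34) led, and neighbours in that order lay within their spread. *Glra1* (28.1 ± 6.07), *Gad2* (20.4 ± 2.69) and *Gphn* (14.5 ± 1.48) followed. In LAG-3-/- libraries *Slc6a9* (72.8 ± 6.78) and *Slc32a1* (65.8 ± 9.57) again stood highest, *Slc6a5* (30.4 ± 2.66) came below *Glrb* (50.9 ± 3.48) and *Gad1* (41.9 ± 9.95), and *Gad2* (11.9 ± 2.99) was level with *Gphn* (13.1 ± 0.90) within the spread. LAG-3+/+ replicate 1 was the lowest and replicate 2 the highest of its group for 10 of the 10 genes, and LAG-3-/- replicate 1 was the lowest of its group for 7. The summed pan-neuronal markers were at 3995, 5375 and 4749 CPM in the LAG-3+/+ libraries and at 5371, 5696 and 5181 CPM in the LAG-3-/- libraries. Relative to the mean log2 level of the 10 pan-neuronal markers in the same library, the differences were -3.12 for *Glra1*, -0.98 for *Slc6a5* and -0.97 for *Gad2*. Neither these genes nor the markers were adjusted here for transcript length, which is taken up below. In such bulk tissue, fewer cells of a type and less RNA per cell cannot be told apart.

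Transcript length ran through the whole comparison. Over the 17695 tested genes with a length, sorted into 10 bins by the length of the canonical transcript, the median log2 fold change was 0.56 in the bin of the shortest transcripts (96 to 1047 bases) and -0.56 in the bin of the longest (6900 bases or more), a difference of -1.12. The trend separated the groups library by library. The longest bin exceeded the shortest by 0.44, 0.60 and 0.55 in the LAG-3+/+ libraries (log2 deviation from the mean of the 6 libraries) while in the LAG-3-/- libraries this difference was -0.82, -0.58 and -0.28. The share of mitochondrial genes in all counts was 6.25, 4.60 and 6.78% in the LAG-3+/+ libraries and 14.8, 14.7 and 7.99% in the LAG-3-/- libraries. Their part in the differences was not tested.

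The 10 genes stood at different places on this trend. *Glra1* is short for this list (2812 bases), and a smooth curve through all genes put a gene of its length at a log2 fold change of 0.09, so that it differed from the curve by -3.03. Only 0.113% of the tested genes lay further below. *Slc6a5* (7065 bases) and *Gad2* (6099 bases) are among the longest of the 10, with curve values of -0.42 and -0.34, and differed from the curve by -0.42 and -0.44. *Glra3* (6696 bases) and *Glrb* (5020 bases), which are long and did not pass the test, lay above the curve by 0.19 and 0.28. With coding length or the longest transcript in place of the canonical one, *Glra1* differed from the curve by -2.93 and -3.16. *Slc6a5* differed by -0.61 and -0.51, *Gad2* by -0.67 and -0.54, and *Glrb* by 0.10 and 0.29. *Glra3* changed side with the measure, at -0.19 and 0.10.

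**Figure D3:**
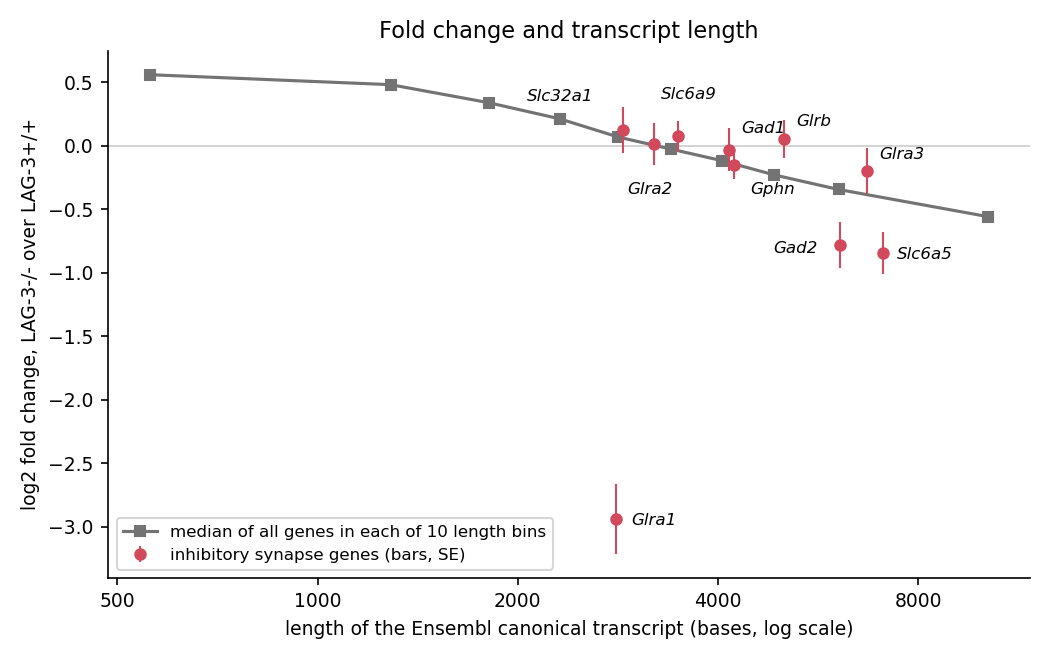
Log2 fold change (LAG-3-/- over LAG-3+/+) against canonical transcript length in bases on a log scale, for the 10 genes (red, bars are SE) and for the median of all tested genes in 10 length bins (grey squares at the middle of each bin's range on the log scale, the outer bins truncated). The grey line runs from 0.56 to -0.56, *Gad2* and *Slc6a5* lie below it, and *Glra1* stands far from all the other genes at -2.94.

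In a further fit, an offset for each library was then estimated from length and GC content over all genes. The log2 fold change of *Glra1* was -3.05 (SE 0.28) there, that of *Slc6a5* -0.39 (SE 0.14) and that of *Gad2* -0.38 (SE 0.16). *Glra1* and *Slc6a5* passed the test with the offsets and *Gad2* did not, while *Glrb* passed in the higher direction at 0.39 (SE 0.14). In this fit 12.5% of all tested genes passed lower and 13.6% higher, and the median over the 10 genes was -0.02.

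Sex as read from the transcripts separated the groups in part, since the 3 LAG-3+/+ libraries and LAG-3-/- replicate 1 were female and the other 2 LAG-3-/- libraries male. With that sex as a covariate, chosen after seeing the data, the log2 fold changes were -3.07 (SE 0.55) for *Glra1*, -1.0 (SE 0.23) for *Slc6a5* and -1.28 (SE 0.18) for *Gad2*. *Glra3* (-0.70, SE 0.18) and *Gad1* (-0.49, SE 0.17) also passed in this fit, making 5 of the 10 genes lower and 2 of them called, beside 20.7% and 4.99% of all tested genes. This fit and the female libraries taken alone (*Glra1* -3.08, *Gad2* -1.28, *Slc6a5* -1.0) rest on the single female LAG-3-/- library, the one with the strongest length trend (-0.82), and which is assumed to vary like the others. When the 2 LAG-3+/+ libraries that went against their listed sex were left out, 1 LAG-3+/+ library stood against 3, and the spread came from the LAG-3-/- group alone, the lone library being assumed to vary like it. There *Glra1* (-2.87, SE 0.34) and *Slc6a5* (-0.76, SE 0.17) passed and *Gad2* (-0.79, SE 0.27) did not, beside 9.9% of all genes tested in that fit that passed lower. Without LAG-3-/- replicate 2, the library with Schwann markers, the values were -2.72 for *Glra1*, -0.88 for *Slc6a5* and -0.88 for *Gad2*, and all 3 genes passed.

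**Figure D4:**
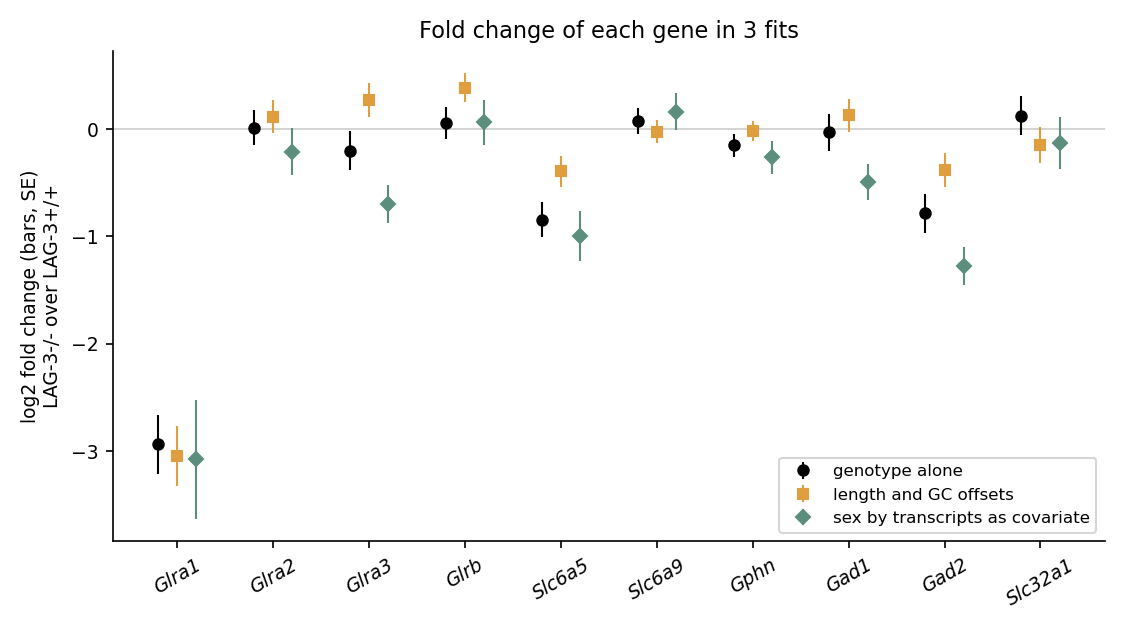
Log2 fold change (LAG-3-/- over LAG-3+/+, bars are SE) of the 10 genes in 3 fits: genotype alone, genotype with length and GC offsets, and genotype with sex by transcripts as covariate. *Glra1* stays between -3.07 and -2.94, *Slc6a5* and *Gad2* move to -0.39 and -0.38 with the offsets, and *Glra3* ranges from -0.70 to 0.27.

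The profile of *Glra1* over the 6 libraries (Pearson correlation of log2 CPM, a description over points that share libraries and length trend) was most like those of *Slc4a8* (0.9997), *Smad4* (0.9993), *Ank2* (0.9987), *Sema6a* (0.9986) and *Dock10* (0.9979). These genes were lower by much less, with log2 fold changes of -0.95, -0.59, -0.89, -0.54 and -0.61, and their transcripts are of 4810 bases or more. Among the 10 genes, *Slc6a5* (0.924) and *Gad2* (0.869) followed *Glra1* most closely, then *Gphn* (0.682) and *Glra3* (0.452), and the other 5 lay between -0.152 and 0.181. The 6 libraries include both genotypes, so these correlations largely restate the group differences given above and are not separate evidence. Of the tested genes next to *Glra1* on chromosome 11, *G3bp1* (0.03, SE 0.10), *Gm12239* (-0.11, SE 0.44) and *Nmur2* (0.16, SE 0.32) did not pass the test, and *Atox1* rose by 0.90 (SE 0.15).

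Beyond the 10 genes, 7 lists of other inhibitory synapse and interneuron genes held 82 genes, of which 77 were tested. Of these, 30 passed lower (39.0%) and 13 higher (16.9%), beside 23.9% and 23.1% of all tested genes, with a median log2 fold change of -0.22. With the length and GC offsets 15 passed lower and 12 higher, beside 12.5% and 13.6% of all tested genes, and the median was -0.03. With sex by transcripts as covariate 38 passed lower and 10 higher, beside 20.7% and 19.1% of all tested genes. That fit rests on the single female LAG-3-/- library. When the 2 LAG-3+/+ libraries that went against their listed sex were left out, which leaves 1 LAG-3+/+ library, 15 passed lower and 2 higher, beside 9.9% and 6.92% of all genes tested.

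The GABA-A receptor subunits, which form the chloride channels opened by GABA, passed lower for 5 of 15 tested and higher for 1. Of all tested genes, 23.9% passed lower and 23.1% higher (12.5% and 13.6% with the offsets). *Gabrg1* was at 64.7 CPM in LAG-3+/+ and 37.8 CPM in LAG-3-/- libraries (log2 fold change -0.77, edgeR adjusted p = 0.00036), *Gabrb1* at 116 and 70.3 CPM (-0.72, edgeR adjusted p = 0.00061), and *Gabrd*, of extrasynaptic receptors, at 0.482 and 1.34 CPM (1.46, edgeR adjusted p = 0.013). *Gabrb2*, singled out after its values were seen, fell by 2.64 on the log2 scale from 24.1 to 3.83 CPM and was the fifth lowest among genes of at least 10 CPM (edgeR adjusted p = 0.020). With the length and GC offsets 2 of these subunits passed lower and 1 higher: *Gabrg1* was at -0.47 and passed, *Gabrb2* at -2.11 and passed, *Gabrd* at 1.08 and passed, and *Gabrb1*, whose transcript has 13763 bases, at 0.04 and did not. *Gabra6*, *Gabrp* and *Gabrr3* had no counts in the cord.

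The metabotropic GABA-B receptor list passed lower for 4 of 6 and higher for 0. Beside the lists of this paragraph, 23.9% of all tested genes passed lower and 23.1% higher (12.5% and 13.6% with the offsets). The 3 with the smallest p were auxiliary KCTD subunits, with *Kctd12* from 143 to 88.8 CPM (-0.68), *Kctd12b* from 10.9 to 5.48 CPM (-1.0) and *Kctd16* from 3.27 to 0.859 CPM (-1.88). The fourth was the receptor subunit *Gabbr2* (-0.49), and the KCTD subunit *Kctd8* (0.07) did not pass. *Gabbr1*, the subunit that binds GABA, stood at 462 and 481 CPM (0.06) and did not pass. With the offsets *Kctd12* (-0.28), *Kctd12b* (-0.68) and *Kctd16* (-2.29) passed lower, *Gabbr2* (-0.31) did not pass, and *Gabbr1* passed higher (0.41). In GABA uptake and breakdown, 2 of 5 passed lower and 0 higher, namely the enzymes *Abat* (-0.43) and *Aldh5a1* (-0.39). With the offsets neither passed (-0.15 and -0.05). In glycine synthesis and cleavage, 1 of 6 passed lower (*Gldc*, -0.43) and 1 higher (*Gcsh*, 0.54), and *Shmt1* (-0.27) did not pass. With the offsets *Gldc* (0.03) and *Gcsh* (0.19) did not pass.

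Among scaffold and adhesion proteins of the inhibitory postsynapse, 8 of 16 passed lower and 3 higher. For this list and chloride transport, the shares of all tested genes were 23.9% lower and 23.1% higher (12.5% and 13.6% with the offsets). *Igsf9b* fell from 42.5 to 20.6 CPM (-1.05), *Slitrk3* from 29.7 to 16.0 CPM (-0.89) and *Dmd* from 71.5 to 44.1 CPM (-0.70). Of chloride transport, whose gradient sets the effect of both transmitters, 6 of 11 passed lower and 1 higher, led by the kinases *Wnk1* (550 to 326 CPM, -0.76) and *Wnk3* (45.4 to 27.1 CPM, -0.74). The scaffold and chloride lists have long transcripts, with medians of 5698 and 5253 bases. With the offsets their counts were 4 lower and 3 higher (scaffold) and 3 lower and 1 higher (chloride transport). Of the genes named, *Slitrk3* (-0.48) and *Wnk3* (-0.40) passed there, while *Igsf9b* (-0.36), *Dmd* (0.09) and *Wnk1* (-0.12) did not.

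Of the 18 genes listed as inhibitory interneuron markers 7 passed higher and 4 lower, beside 23.1% and 23.9% of all tested genes, with a median of 0.43 (0.29 with the offsets). These markers did not move as a set, and whether each is confined to inhibitory neurons of the cord was not tested. The peptides *Sst* (54.9 to 108 CPM, 0.98, edgeR adjusted p = 0.00033), *Penk* (99.97 to 193 CPM, 0.95, edgeR adjusted p = 0.00056) and *Gal* (3.54 to 6.81 CPM, 0.94, edgeR adjusted p = 0.0022) rose. The lower members were *Pax2* (-0.61), *Lhx1* (-0.69) and *Tfap2b* (-0.92), transcription factors of inhibitory neurons, and *Nos1* (-0.52). With the offsets *Sst* (0.76) and *Penk* (0.87) passed, *Gal*, whose transcript has 788 bases, did not (0.28), and of the lower members *Pax2* and *Lhx1* passed. With sex by transcripts as covariate 4 of the 18 listed markers passed higher, beside 19.1% of all tested genes, and nothing is read from that count.

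**Figure D5:**
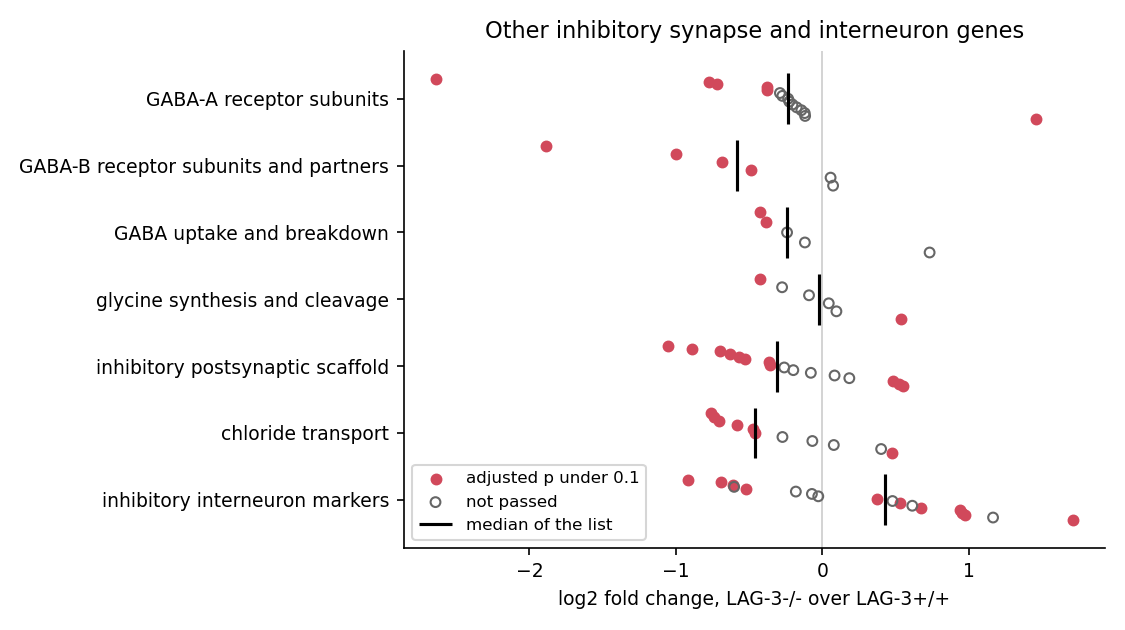
Log2 fold change (LAG-3-/- over LAG-3+/+) of each tested gene in the 7 lists of other inhibitory genes, with filled points for an adjusted p under 0.1, open points for genes that did not pass, and a bar at each list's median. The medians lie below 0 for 6 lists and at 0.43 for the genes listed as interneuron markers. Of these markers 7 passed higher and 4 lower, beside 23.1% and 23.9% of all tested genes.

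Markers of other cells that could shift the level of these genes were read in the same fit. Over all tested genes 23.9% passed lower and 23.1% higher, and with the offsets 12.5% and 13.6%. Counts near those shares are not read as a change of a cell type. Of the motor neuron markers, whose cells carry glycine receptors, 4 of 8 passed higher and 1 lower. Their summed levels were 184 to 231 CPM in LAG-3+/+ and 214 to 281 CPM in LAG-3-/- libraries. Much of these sums came from *Tns1*, the lower gene, with means of 109 and 91.3 CPM (log2 fold change -0.25). The cholinergic enzyme *Chat* stood at 8.87 and 9.19 CPM. Excitatory neuron markers passed higher for 6 of 14 (sums of 373 to 492 and 413 to 509 CPM), pan-neuronal markers for 3 of 10 with 1 lower, and oligodendrocyte markers for 4 of 8 (17097 to 18660 and 24061 to 33569 CPM). Astrocyte markers passed higher for 3 of 9 and lower for 3, microglia markers for 1 and 2 of 10, and endothelial markers for 1 and 3 of 6. With the offsets microglia markers passed higher for 0 and lower for 5 (median -0.36), motor neuron markers for 2 and 0, astrocyte markers for 2 and 1, and endothelial markers for 0 and 1. Excitatory (6 and 0), pan-neuronal (3 and 1) and oligodendrocyte markers (4 and 0) had the same counts as without them. The position along the cord, read from Hox genes, showed 0 of 6 lumbar genes past the test in either direction and 1 of 8 cervical and thoracic genes (*Hoxc9*, 0.52) higher, and of nuclear-retained RNAs 1 of 6 (*Kcnq1ot1*, 0.32) passed higher. With the offsets neither *Hoxc9* nor *Kcnq1ot1* passed, and 1 lumbar gene and 1 cervical and thoracic gene passed lower. Of the sensory ganglion and Schwann markers 0 of the 3 tested passed, and *Scn10a* of sensory neurons was at 0 in all 6 libraries. The lists with a count of 0 in edgeR had 0 in that direction also at an unadjusted p under 0.05 and in DESeq2, except for 1 cervical and thoracic Hox gene lower in DESeq2. The unadjusted limit is nearly the same cut-off here and no separate check. The part of these cell populations in the *Glra1* difference was not tested.

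In the 26 libraries of sorted microglia, a readout apart from the cord comparison, several of the genes had no or almost no counts. *Glra1* had 0 counts in 22 of 26 libraries and 0.369 CPM at most, *Glra2* had 0 counts in 26, and *Glra3* and *Slc32a1* had 0 counts in 23 each. *Slc6a5* reached 0.142 CPM and *Gad2* 0.605 CPM at most, where a count of 0 allows up to 0.0555 to 0.261 CPM (3 counts) depending on the library. *Gphn*, which also serves molybdenum cofactor synthesis in cells without synapses, was the exception, with a median of 9.28 and a highest value of 17.1 CPM. *Slc6a9* (median 0.660 CPM, highest 4.96), *Gad1* (0.315, highest 6.84) and *Glrb* (0.0972, highest 3.32) were uneven among libraries, with highest values above the limit that a count of 0 allows.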

How the data were processed

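The cord table holds estimated counts per Ensembl gene, which the authors deposited unnormalised after trimming with Trim Galore 0.6.7, quantification with Salmon 1.9.0 against GRCm39 and import with tximport in R 4.2.1, and the 2 microglia tables were made likewise. The annotation release is not given in the sources used here. For the cord libraries the study's methods name a directional kit on total RNA, whereas the labels name the SMART-seq kit of the sorted cells. Strand and transcript coverage therefore remain uncertain.

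Estimated counts were rounded to whole numbers. Gene names, lengths and coordinates came from GENCODE vM39 (GRCm39), from which 71 identifiers with 0.0145% of the counts were absent. The 6 cord libraries were fitted on genotype in edgeR 4.0.16 under R 4.3.3 (filterByExpr with minimum count 10 and minimum total 15, TMM, robust quasi-likelihood F-test, Benjamini-Hochberg over 17702 genes; common dispersion 0.0247). A gene passed at an adjusted p under 0.1 and was called when the absolute log2 fold change also exceeded 1. Log2 CPM used a prior count of 2. Length curves were lowess fits (fraction 0.3, statsmodels 0.14.6 in Python 3.11.15), and the length and GC offsets were splines of 5 degrees of freedom per library. Coding sequences were aligned in MAFFT 7.526. The scripts were tested on simulated data with planted changes larger than those of *Slc6a5* and *Gad2*. Smaller changes were not covered by that test. Alternatives included DESeq2 1.42.0, other scalings and filters, listed sex, a replicate block and each library left out.

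The 10 genes and the lists were chosen with earlier results of these data known. Named in other lists were the 3 genes with the smallest adjusted p, and the 5 genes of at least 10 CPM most correlated with *Glra1*, except where a gene is not reported here; lists of other cell types are given by counts. *Gabrb2*, *Gabbr1*, *Gabbr2*, *Kctd8*, *Chat*, *Tns1*, *Gm10359*, the neighbours of *Glra1* and the lower interneuron markers were named after their values were seen. The study gives n = 3 for each cord group, but the labels do not tie libraries to mice, so p-values measure the spread between these libraries, and intervals and floors cover counting error only. Deposited columns were all mapped to samples.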

Additional observations from a re-analysis of the deposited data

Results flagged for a closer look

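In the sorted microglia, the highest library stood apart from the rest of its group (Dixon's gap test) in 7 of the 21 combinations of gene and group tested (chance gives about 1 in 20 where values vary). In 4 of the 7 every other library was at 0, so that any count is singled out, and the number is not read against chance. *Glra1* was at 0.102 CPM in WT microglia replicate 1 and at 0.0667 CPM in SOD1G93A LAG-3-high microglia replicate 2, on 2 and 1 counts, below the limit of 3 that a count of 0 allows, with 0 counts in the other libraries of each group. *Glra3* was at 0.255 CPM in WT replicate 1 and at 1.24 CPM in LAG-3-high replicate 1, again with 0 counts in the others. *Glrb* was at 1.56 CPM in LAG-3-low replicate 1, *Gphn* at 7.76 CPM in WT replicate 2 and *Gad1* at 6.84 CPM in LAG-3-low replicate 3.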

How the results depend on the processing

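The log2 fold change of *Glra1* ranged from -3.27 to -2.72 over 21 alternatives and passed in 18 of 18 fits with a test. Those fits reuse the libraries in which *Glra1* was known to fall, so its passing is not separate evidence. *Slc6a5* ranged from -1.0 to -0.37 and passed in 18, and *Gad2* ranged from -1.28 to -0.38 and passed in 16. Leaving out 1 library at a time kept the number of the 10 genes past the test at 3 lower and 0 higher, and that of called genes at 1. With length and GC offsets, 1 of the 10 genes passed higher (0 without), 2410 genes of all tested passed higher and 2217 lower (4096 and 4234 without), 299 were called higher (773 without), 15 genes of the inhibitory lists passed lower (30 without), and the difference between longest and shortest bin was 0.0053, as the offsets are built to remove it. Library totals without TMM gave 485 called higher, and no filter gave a length difference of -0.67. Among alternatives chosen after seeing the data, sex by transcripts as covariate gave 883 genes called lower (558 without), 5 of the 10 genes passing lower, 2 called and a length difference of -1.37. Female libraries alone gave 944 called lower, 5 passing and 2 called. Leaving out the libraries against their listed sex gave 470 called higher, 1304 passing higher, 1867 passing lower, and 15 lower and 2 higher in the inhibitory lists. The cause of these shifts was not tested, and the last 2 use fewer libraries.

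The replicate block alone gave 3 of the 10 genes lower and changed no other call count by over 1.5 times (4296 genes lower, 4019 higher, 30 and 13 in the inhibitory lists). The block with length and GC offsets gave 286 called higher, 2475 passing higher, 2409 passing lower, 1 of the 10 genes passing higher, 16 of the inhibitory lists lower and a length difference of 0.0018; *Gad2* passed in that fit at -0.40. After removal of the group means, libraries with the same replicate number correlated at 0.0223, 0.0106 and -0.0300 over all tested genes, and not every library correlated best with its own number, so these libraries share only a number.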
